A study of Mus musculus with 18 samples.

Results

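The genes described here were the tumor suppressor gene Trp53, 4 inhibitors of cyclin-dependent kinases (Cdkn1a, Cdkn1b, Cdkn2a and Cdkn2b) and 5 genes known as targets of the p53 protein (Mdm2, Ccng1, Bax, Zmat3 and Phlda3). They were chosen by name and amount to 10 of the 50686 genes in the count files. RNA was sequenced from E0771 cells, a mouse line of triple-negative breast cancer. All cells carried a CMV-driven luciferase construct and a retroviral LENC vector with an mCherry marker and a hairpin. The hairpin was directed against Renilla (cntrl) or against Cdk8 (shCdk8-1 and shCdk8-2), and each of these 3 lines received DMSO or Senexin B (SnxB) at 1 µM for 48 h. SnxB is an inhibitor of the kinases CDK8 and CDK19. There were thus 6 groups of 3 libraries. Each hairpin was carried by 1 line, so that effects of a hairpin and of the line that carries it cannot be told apart. The sources used here do not say whether the 3 libraries of a group came from separate cultures, and p-values measure the spread between these libraries, which may be technical.

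The p53 protein is a transcription factor that is held at a low level by MDM2, a ubiquitin ligase whose own gene p53 switches on. After DNA damage and other stress it accumulates and raises genes for cell cycle arrest, DNA repair and cell death. The best known of its arrest genes is Cdkn1a, whose product p21 binds complexes of cyclins with cyclin-dependent kinases. Cdkn1b encodes p27, a relative of p21 that is regulated largely through protein turnover. Cdkn2a encodes both an inhibitor of the kinases CDK4 and CDK6 and, in another reading frame, the protein ARF, which restrains MDM2, and Cdkn2b is its neighbor and paralog. CDK8 and CDK19 belong to another branch of the kinase family and act with the Mediator complex in transcription. Protein levels, which matter for p53 and p27 in particular, were not measured in these libraries.

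The libraries held 16452260 to 22664693 counts, and a count of 3 in a library corresponded to 0.132 to 0.182 CPM, the count scaled to library size. Cdk8 itself stood at 56.1 ± 2.13 CPM (SD, n = 3) in cntrl cells in DMSO, at 21.4 ± 2.44 CPM in shCdk8-1 and at 38.9 ± 0.376 CPM in shCdk8-2. It fell by 1.38 and 0.53 on the log2 scale in these lines (adjusted p = 2.58e-12 and 1.92e-06, edgeR), so the knockdown was partial and was stronger with shCdk8-1. Its paralog Cdk19 was higher in both knockdown lines, with log2 fold changes of 0.42 and 0.13 (adjusted p = 4.49e-08 and 0.0161). The call in shCdk8-2 was lost without replicate 1 or 2 of cntrl (0.12 in both) and without replicate 1 of shCdk8-2 (0.11). Of 10 mammary and cell line markers, 5 were abundant enough to be tested, and the vimentin gene Vim averaged 4027 CPM. The epithelial keratin gene Krt8 held 1 count in each cntrl library in DMSO, 137 to 153 in shCdk8-1 (7.51 ± 0.310 CPM) and 249 to 279 in shCdk8-2 (13.04 ± 0.790 CPM), and it was higher in both lines (adjusted p = 1.76e-15 and 9.7e-17). The other epithelial markers Epcam, Krt18, Krt5, Krt14 and Cdh1 held at most 17 counts in any library, Cdh1 being higher in shCdk8-1 (adjusted p = 0.00417), and the progesterone receptor gene Pgr held none. Esr1, the estrogen receptor gene, was at 23.1 ± 1.42 CPM in cntrl cells in DMSO, or 1.69 CPM per kilobase of exon. It was at 1.25 and 0.951 CPM in shCdk8-1 and shCdk8-2. Erbb2, the gene of the receptor HER2, was at 55.4, 49.6 and 47.3 CPM in cntrl, shCdk8-1 and shCdk8-2 in DMSO. It fell by 0.23 in shCdk8-2 (adjusted p = 0.00249, edgeR). The line is described as triple-negative, but receptor protein was not measured, so these RNA levels do not decide that status. The defining blood markers Ptprc, Cd3e, Adgre1 and Csf1r held at most 11 counts in any library. The 9 blood, endothelial and stromal markers reported here summed to 694 to 703 CPM in cntrl, 489 to 535 CPM in shCdk8-1 and 620 to 659 CPM in shCdk8-2 in DMSO, and to 1045 to 1153, 643 to 669 and 880 to 918 CPM in SnxB. Most of that sum came from Pdgfra, Pdgfrb and the smooth muscle actin gene Acta2, and it hides opposite changes of the endothelial markers. Acta2 had the largest rise in SnxB. It went from 142 to 419 CPM in cntrl, from 94.6 to 225 CPM in shCdk8-1 and from 208.5 to 421 CPM in shCdk8-2. Pecam1 was at 0.286 CPM in cntrl cells in DMSO and rose to 14.3 CPM in shCdk8-1 and 5.85 CPM in shCdk8-2 (log2 fold changes 5.59 and 4.31, adjusted p = 3.5e-17 and 4.72e-14), while Cdh5 fell from 4.34 CPM to 0.206 and 0.595 CPM (−4.35 and −2.86, adjusted p = 1.57e-11 and 4.71e-10). The part of these markers in the results below was not tested.

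The promoter sequences of the members were read from RefSeq (build GRCm38.p6), from 250 bases before to 50 bases after each start site. They are shown because a p53 half-site, the 10-base unit that the protein recognizes in pairs, can be looked for in them directly. Of the 10 members 9 were listed, with 11 promoters in all, and Zmat3 was not. A half-site stood in 5 of the 11 windows, and 8.36% of all 32851 windows of this length held one. The half-site reads alike on both strands, so 1 search covers both. In the lines below the half-site is in capitals, with 10 bases of context on each side, read along the strand of the gene.
Trp53, chr11:69580274-69580303, plus strand: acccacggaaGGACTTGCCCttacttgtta
Cdkn1a, chr17:29090896-29090925, plus strand: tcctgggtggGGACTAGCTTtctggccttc
Cdkn1a, chr17:29090918-29090947, plus strand: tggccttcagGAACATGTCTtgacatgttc
Mdm2, chr10:117710925-117710954, minus strand: agtcggatagGAACTTGCCTagcgaccatt
Ccng1, chr11:40755452-40755481, minus strand: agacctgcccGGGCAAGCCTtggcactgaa
Bax, chr7:45467080-45467109, minus strand: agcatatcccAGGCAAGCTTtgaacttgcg
The pair in the first Cdkn1a promoter began 73 and 51 bases before its start site, and it was the only pair of half-sites with a spacer of at most 13 bases among the members. Only exact matches to the half-site pattern were counted. The 10 bases right after the second Cdkn1a half-site differ from the pattern only at their first base, and were not counted. Such a pair stood in 24 of all windows, or 0.0731%. No half-site was present in the windows of Cdkn1b, Cdkn2a, Cdkn2b and Phlda3. A match describes letters only and says nothing about binding in these cells.

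Levels per length of RNA (RPKM, counts per kilobase of exon, scaled like CPM) placed the members in the same outline in every group. In cntrl cells in DMSO, Bax led with 65.8 ± 1.97 RPKM (SD, n = 3), ahead of Trp53 with 52.3 ± 1.04 and Cdkn1b with 36.1 ± 1.05. Ccng1, Phlda3, Mdm2 and Cdkn1a followed between 28.0 and 20.2 RPKM, and Zmat3 was at 8.29 ± 0.176 RPKM. No neighbors in that order overlapped in their libraries. In shCdk8-1 cells Phlda3 stood above Cdkn1b in both agents, with 35.1 against 29.2 RPKM in DMSO and 38.1 against 32.5 in SnxB. Ccng1 and Cdkn1a overlapped in shCdk8-1 in DMSO, Cdkn1b and Phlda3 in shCdk8-2 in DMSO, Ccng1 and Phlda3 in cntrl in SnxB, and Cdkn1b and Cdkn1a in shCdk8-1 in SnxB. Over the 6 group means no member spanned 1 log2 unit. The widest spans were 0.809 for Cdkn1a and 0.609 for Phlda3, and the narrowest was 0.136 for Ccng1.

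**Figure D1:**
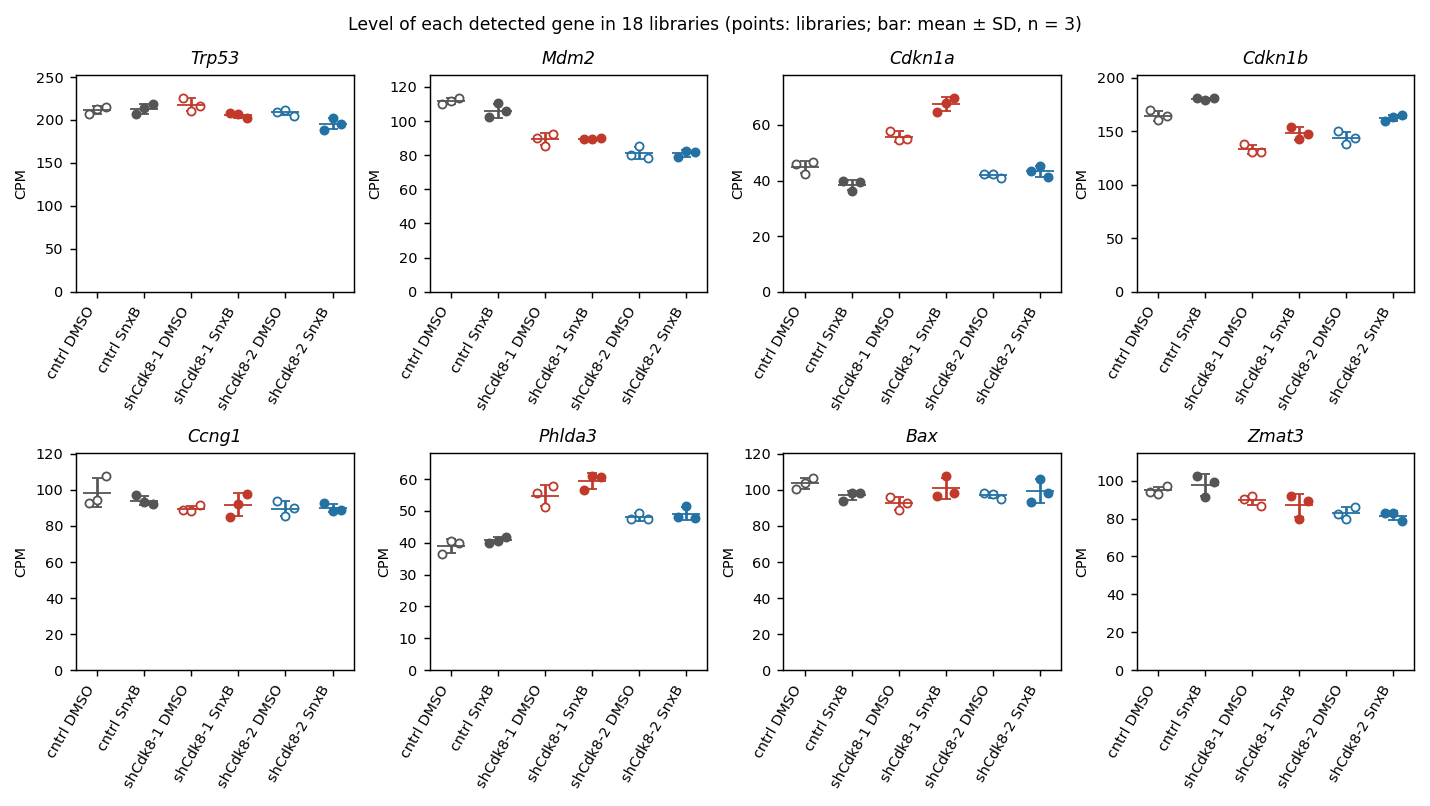
Level in CPM of the 8 detected members (vertical axes from 0) in the 6 groups (horizontal axes), where points are libraries and bars are the mean ± SD of 3 libraries. Mdm2 and Cdkn1b are lower in both knockdown lines than in cntrl, Phlda3 is higher in both, Cdkn1a is highest in shCdk8-1 in SnxB at 67.5 CPM, and Trp53 stays between 189 and 226 CPM in all libraries.

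Cdkn2a and Cdkn2b held 0 counts in all 18 libraries, and 8 of the 10 members could therefore be tested. Over the 342829757 counts of all libraries together, a count of 0 allows a level of up to 0.00875 CPM of the pooled counts for each gene, which covers counting error only. The genes lie on chromosome 4 (Cdkn2a at chr4:89274471-89294653 and Cdkn2b at chr4:89306289-89311032, GRCm38), 11.6 kb apart on the minus strand. Their neighborhood was not silent throughout. Mtap, which encodes an enzyme of methionine salvage and lies 93.4 kb away from Cdkn2a, was at 183 to 215 CPM in the 18 libraries. Klhl9, an adaptor gene of a ubiquitin ligase 552 kb away, was at 109 to 135 CPM, and Focad was at 53.5 to 71.4 CPM. On the other side of both genes the nearest coding gene, Dmrta1, held at most 3 counts in any library. Of the 40 protein-coding genes within 1 Mb, 27 were at 0 in all libraries and 4 reached a mean of 1 CPM. The interferon genes of the region account for many of these zeros, since 15 of 17 with an interferon name had no count. Counts of RNA alone do not tell a silent gene from a deleted one.

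**Figure D2:**
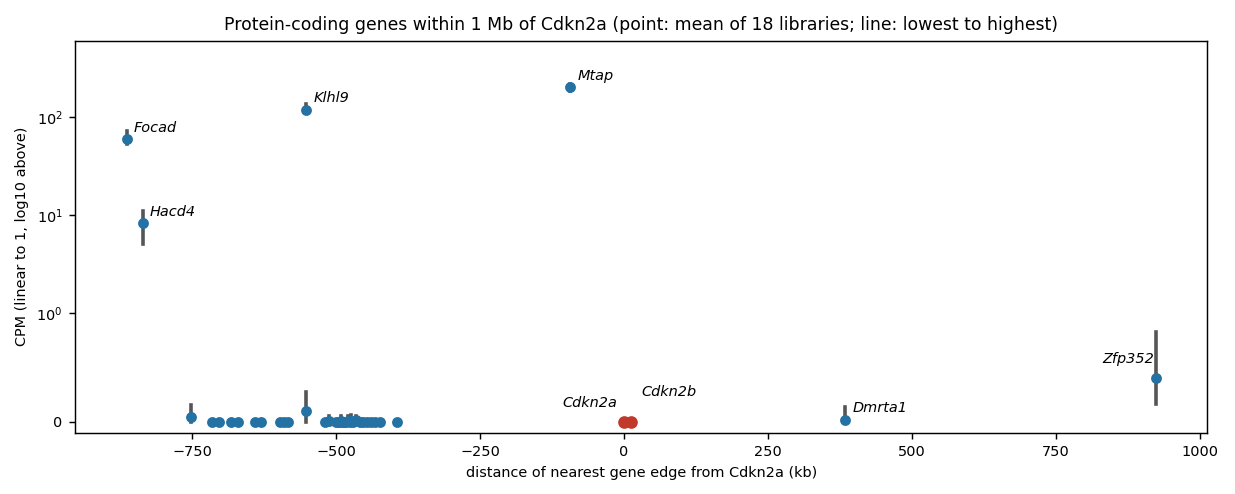
Level of the 40 protein-coding genes within 1 Mb of Cdkn2a (vertical axis in CPM, linear up to 1 and log10 above) against their distance from it in kb, where points are means of 18 libraries and lines run from the lowest to the highest library. Cdkn2a and Cdkn2b, in red, lie at 0, while Mtap at 93.4 kb averages 200 CPM.

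The first question was whether the members differ between cells with and without Cdk8 knockdown. Against cntrl in DMSO, 6 of 8 tested members passed an adjusted p under 0.05 in shCdk8-1 (2 higher, 4 lower) and 5 of 8 in shCdk8-2 (1 higher, 4 lower). Among all 12772 genes tested, 59.6% passed for shCdk8-1 (30.1% higher, 29.5% lower) and 57.1% for shCdk8-2 (29% higher, 28.1% lower), so shares of this size are near the background and are not a result about these genes. No member differed by more than 2-fold, as 12.5% and 11% of all genes did with an adjusted p under 0.05. The median log2 fold change was −0.11 over the members and 0.0061 over all genes for shCdk8-1, and −0.12 and 0.013 for shCdk8-2. Both comparisons use the same cntrl libraries. In bulk RNA, fewer cells that express a gene and less RNA per cell cannot be told apart.

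**Figure D3:**
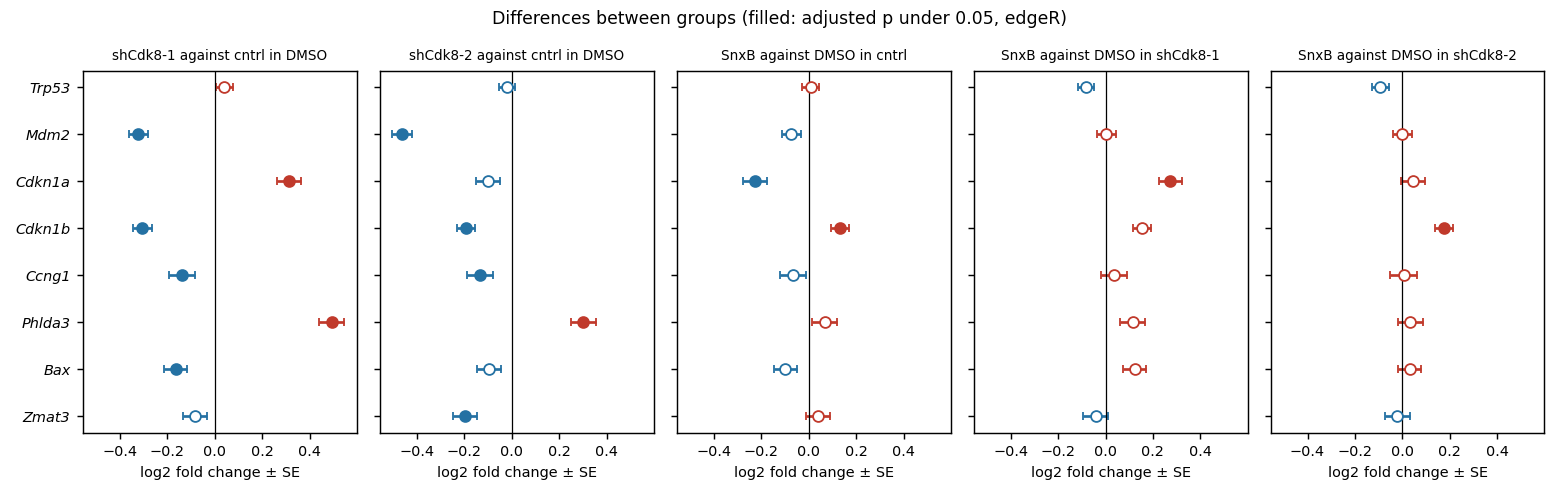
Log2 fold change with its SE (horizontal axes) of the 8 tested members in 5 comparisons, where filled points passed an adjusted p under 0.05 in edgeR. Phlda3 is highest among the members in both knockdown comparisons at 0.49 and 0.30, Mdm2 is lowest at −0.32 and −0.46, and in the SnxB panels few points are filled.

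Trp53 RNA was among the steadiest of the members. It lay at 207, 213 and 215 CPM in cntrl cells in DMSO, at 226, 211 and 216 CPM in shCdk8-1, and at 209, 212 and 205 CPM in shCdk8-2. The 3 groups overlapped, and the log2 fold changes against cntrl were 0.04 (SE 0.0351, adjusted p = 0.356) and −0.02 (SE 0.0351, adjusted p = 0.656). In SnxB it fell by 0.12 in shCdk8-2 against cntrl (SE 0.0352, adjusted p = 0.00555), from 206 to 218 CPM in cntrl down to 189 to 202 CPM in shCdk8-2, with no overlap. That call was lost without replicate 3 of cntrl in SnxB (log2 fold change −0.09) and without replicate 1 of shCdk8-2 in SnxB (−0.09), and over the other settings its adjusted p ran from 0.00232 to 0.2.

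Mdm2, whose product marks p53 for degradation, fell in both knockdown lines. It stood at 110, 112 and 114 CPM in cntrl cells in DMSO, at 90.3, 85.4 and 92.5 CPM in shCdk8-1, and at 80.1, 85.2 and 78.2 CPM in shCdk8-2. Every knockdown library lay below every cntrl library. The decreases were 0.32 on the log2 scale in shCdk8-1 (SE 0.0408, adjusted p = 9.19e-07, edgeR) and 0.46 in shCdk8-2 (SE 0.0409, adjusted p = 7.23e-09). In SnxB the same comparisons gave decreases of 0.24 and 0.39 (adjusted p = 3.02e-05 and 9.66e-08), and all of these calls held without any single library. Mdm2 was also lower in shCdk8-2 than in shCdk8-1 by 0.14 (adjusted p = 0.0194), while Cdk8 itself was higher in shCdk8-2. That last call was lost without replicate 1 or 3 of either line, where the difference was −0.12 to −0.14. Per length, the level of Mdm2 was 0.42 ± 0.0024 of that of Trp53 in cntrl cells in DMSO, 0.327 ± 0.0122 in shCdk8-1 and 0.309 ± 0.0095 in shCdk8-2 (SD, n = 3), again with no overlap between cntrl and either knockdown line.

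Phlda3, whose product competes with the kinase AKT for membrane lipids, rose in both knockdown lines. The libraries gave 36.4, 40.4 and 39.9 CPM in cntrl cells in DMSO, 55.5, 51.2 and 57.7 CPM in shCdk8-1, and 47.4, 49.4 and 47.3 CPM in shCdk8-2. All 3 groups were apart from each other. The log2 fold change against cntrl was 0.49 in shCdk8-1 (SE 0.0527, adjusted p = 8.82e-08) and 0.30 in shCdk8-2 (SE 0.0531, adjusted p = 6.16e-05), and in SnxB it was 0.54 and 0.27 (adjusted p = 1.96e-08 and 0.000205). The difference between the 2 knockdown lines in DMSO was −0.19 (SE 0.0513, adjusted p = 0.0107), lost without replicate 3 of shCdk8-1 (−0.16). Its order across the lines was the reverse of that of Cdk8, which was not so for Mdm2 or Cdkn1a. The means of Cdkn1b were in the order of Cdk8 itself, with 164, 144 and 133 CPM in cntrl, shCdk8-2 and shCdk8-1. So were those of Bax (104, 97.1 and 92.5 CPM) and Ccng1 (98.39, 89.64 and 89.56 CPM), whose libraries overlapped between the knockdown lines. A relation to the level of Cdk8 was not tested.

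Smaller differences were found for the other targets. Ccng1, the gene of cyclin G1, ran from 92.8 to 108 CPM in cntrl cells in DMSO, from 88.5 to 91.5 CPM in shCdk8-1 and from 85.3 to 93.7 CPM in shCdk8-2. It fell by 0.14 in both lines (adjusted p = 0.039 and 0.0428), but shCdk8-2 overlapped with cntrl. Both calls rested on replicate 3 of cntrl, without which the log2 fold changes were −0.06 and −0.06 (adjusted p = 0.322 and 0.34), and over the settings that kept all libraries the adjusted p ran from 0.0209 to 0.0675 and from 0.0218 to 0.108. They were also lost without replicate 1 (−0.13) or 2 (−0.13) of shCdk8-1 and without replicate 2 (−0.11) or 3 (−0.14) of shCdk8-2. Bax, which encodes a protein that opens the outer membrane of mitochondria in apoptosis, ran from 101 to 107 CPM in cntrl and fell by 0.17 in shCdk8-1, to 88.8 to 96.2 CPM (SE 0.0492, adjusted p = 0.00655). In shCdk8-2 it ran from 95.1 to 98.5 CPM, with a log2 fold change of −0.10 that did not pass (adjusted p = 0.102). In SnxB neither line differed from cntrl by the test, with log2 fold changes of 0.06 and 0.03 (adjusted p = 0.339 and 0.603). Zmat3 encodes an RNA-binding zinc finger protein. It fell by 0.20 in shCdk8-2 (SE 0.0508, adjusted p = 0.00259), from 93.2 to 97.1 CPM in cntrl to 80.0 to 86.1 CPM, while shCdk8-1 with 86.8 to 91.8 CPM did not pass (−0.08, adjusted p = 0.172). In SnxB Zmat3 fell in both lines, by 0.16 in shCdk8-1 (adjusted p = 0.00834, libraries overlapping, lost without replicate 2 of shCdk8-1 at −0.11) and by 0.26 in shCdk8-2 (adjusted p = 0.000219).

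The inhibitor genes Cdkn1a and Cdkn1b went apart in shCdk8-1. Cdkn1a (chr17:29090979-29100722, plus strand, GRCm38) was at 45.8, 42.4 and 46.6 CPM in cntrl cells in DMSO, at 58.0, 54.5 and 54.9 CPM in shCdk8-1, and at 42.4, 42.5 and 41.0 CPM in shCdk8-2. The shCdk8-1 libraries lay above all others, and those of shCdk8-2 overlapped with cntrl. It rose by 0.31 in shCdk8-1 (SE 0.0496, adjusted p = 1.7e-05), and in shCdk8-2 the log2 fold change was −0.10 (SE 0.0506, adjusted p = 0.105), a decrease that passed when replicate 2 of cntrl was left out (−0.15, adjusted p = 0.0278, against 0.0564 to 0.335 over the settings that kept all libraries). The difference between shCdk8-2 and shCdk8-1 was −0.41 (SE 0.0495, adjusted p = 4.95e-06) and held without any single library.

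Cdkn1b, in contrast, fell in both lines. The libraries gave 170, 160 and 164 CPM in cntrl cells in DMSO, 138, 130 and 131 CPM in shCdk8-1, and 150, 138 and 143 CPM in shCdk8-2. No knockdown library reached the cntrl libraries. The decreases were 0.31 in shCdk8-1 (SE 0.0382, adjusted p = 8e-07) and 0.19 in shCdk8-2 (SE 0.038, adjusted p = 0.000216), and in SnxB 0.29 and 0.15 (adjusted p = 1.82e-06 and 0.0021). With library totals the last of these was −0.09 and did not pass (adjusted p = 0.0595). The lines also differed from each other, with 0.11 more in shCdk8-2 than in shCdk8-1 (adjusted p = 0.0415), a call lost without replicate 2 (0.10) or 3 (0.10) of shCdk8-1 and without replicate 1 (0.08) or 3 (0.11) of shCdk8-2. Over the settings that kept all libraries its adjusted p ran from 0.0254 to 0.176. Per length, the ratio of Cdkn1a to Cdkn1b was 0.56 ± 0.021 in cntrl, 0.859 ± 0.0022 in shCdk8-1 and 0.598 ± 0.0273 in shCdk8-2 (SD, n = 3). Between the 2 knockdown lines 4 of 8 members passed (1 higher, 3 lower in shCdk8-2), against 21.1% of all genes (11.2% higher, 9.91% lower).

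The second question was how the members respond to inhibition of the kinases. SnxB against DMSO in cntrl cells gave 2 passing members, Cdkn1b higher and Cdkn1a lower, while 5.54% of all genes passed (3.41% higher, 2.14% lower). In shCdk8-1 Cdkn1a passed in edgeR (higher, against 1.48% of all genes, 0.916% higher), DESeq2 called 2 members, and 5 of 8 had an unadjusted p under 0.05. In shCdk8-2 Cdkn1b passed (higher, against 2.05%, 0.987% higher), and 2 of 8 had an unadjusted p under 0.05. The shares of all genes at that unadjusted p, or with DESeq2, are not given for these lines. The unadjusted counts and the DESeq2 count are thus not a result about the members. No response of a member exceeded 2-fold, as 0.305%, 0.11% and 0.125% of all genes did. The responses of Mdm2 were −0.07, 0.003 and 0.0001 on the log2 scale in cntrl, shCdk8-1 and shCdk8-2, and those of Phlda3 were 0.07, 0.11 and 0.03, none of which passed (adjusted p between 0.314 and 1). Trp53 was lower in every SnxB library than in every DMSO library in both knockdown lines, by 0.08 in shCdk8-1 (unadjusted p = 0.0297, adjusted p = 0.292, edgeR) and by 0.09 in shCdk8-2 (unadjusted p = 0.0153, adjusted p = 0.242), and in cntrl the groups overlapped at 0.009. Bax lay lower in every SnxB library in cntrl (−0.10, adjusted p = 0.308) and higher in every one in shCdk8-1 (0.12, unadjusted p = 0.0215, adjusted p = 0.258), and overlapped in shCdk8-2 (0.03). Neither gene passed in any line. The responses of Ccng1 and Zmat3 lay between −0.07 and 0.04 and overlapped in all lines. The median log2 response of the members was −0.03, 0.07 and 0.02 in the 3 lines, against 0.0057, 0.0071 and −0.0016 over all genes.

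Cdkn1a responded to SnxB in opposite directions in cntrl and shCdk8-1 cells. In cntrl it moved from 45.8, 42.4 and 46.6 CPM in DMSO to 39.7, 36.4 and 39.4 CPM in SnxB. In shCdk8-1 it moved from 58.0, 54.5 and 54.9 CPM to 64.8, 67.8 and 69.8 CPM, and in shCdk8-2 from 42.4, 42.5 and 41.0 CPM to 43.6, 45.1 and 41.1 CPM. The agents did not overlap in cntrl or shCdk8-1 and overlapped in shCdk8-2. It fell by 0.23 in cntrl (SE 0.0511, adjusted p = 0.0101) and rose by 0.27 in shCdk8-1 (SE 0.0481, adjusted p = 0.0036), and the log2 fold change in shCdk8-2 was 0.04 (SE 0.0508, adjusted p = 0.831). The fall in cntrl was lost without replicate 3 of cntrl in DMSO (−0.20, adjusted p = 0.066) or replicate 2 of cntrl in SnxB (−0.18, adjusted p = 0.0768), and over the settings that kept all libraries its adjusted p ran from 0.00489 to 0.0391. The rise in shCdk8-1 held without any single library, and its adjusted p ran from 0.000448 to 0.0591 over the other settings, the highest being the fit to the 2 groups compared alone.

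The difference between these responses was tested itself as an interaction of agent and line. For shCdk8-1 against cntrl it was 0.50 (SE 0.0702, adjusted p = 0.00304), with Cdkn1a the only one of 8 members to pass and 0.305% of all genes passing (0.0705% higher). It held in 12 of 12 fits that left out a library, and its adjusted p ran from 9.15e-06 to 0.0169 over the other settings. For shCdk8-2 against cntrl it was 0.27 (SE 0.072, adjusted p = 0.327) and did not pass. No member passed there in edgeR or in DESeq2, 1 had an unadjusted p under 0.05 (5.86% of all genes did), and 0.0548% of all genes passed. With both in SnxB, shCdk8-1 stood above cntrl by 0.81 (SE 0.0496, adjusted p = 1.79e-11), and shCdk8-2 by 0.17 (SE 0.0513, adjusted p = 0.00754), the latter lost without replicate 2 of cntrl in SnxB (0.13). In SnxB 5 of 8 members passed for shCdk8-1 against cntrl and 6 of 8 for shCdk8-2, where 60.6% and 56.7% of all genes did.

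Cdkn1b had a higher mean in SnxB than in DMSO in all 3 lines. The level moved from 160 to 170 CPM to 179 to 181 CPM in cntrl, from 130 to 138 CPM to 142 to 154 CPM in shCdk8-1, and from 138 to 150 CPM to 159 to 165 CPM in shCdk8-2. In none of the lines did the agents overlap. The log2 fold changes were 0.13 (SE 0.0378, adjusted p = 0.0449), 0.15 (SE 0.0384, adjusted p = 0.0524) and 0.18 (SE 0.038, adjusted p = 0.0161) in cntrl, shCdk8-1 and shCdk8-2. The response in shCdk8-1 thus did not pass in the main edgeR fit. It passed with library totals, DESeq2, a cutoff above 1 CPM in 3 libraries and a replicate block (adjusted p = 0.047, 0.0285, 0.0374 and 0.0293). Over all settings that kept all libraries its adjusted p ran from 0.0285 to 0.316. Neither interaction passed, with differences of 0.02 (SE 0.0538, adjusted p = 0.927) and 0.04 (SE 0.0536, adjusted p = 0.992) from the response in cntrl. The call in cntrl held without replicate 1 of cntrl in DMSO and was lost without each of the other 5 libraries compared (0.12 to 0.14), and its adjusted p ran from 0.0273 to 0.125 over the other settings. The call in shCdk8-2 was lost without replicate 2 of shCdk8-2 in DMSO (0.16), and that in shCdk8-1 was reached without replicate 1 in DMSO (0.18) or replicate 2 in SnxB (0.18). Per length, the ratio of Cdkn1a to Cdkn1b was 0.438 ± 0.018 in cntrl, 0.936 ± 0.0656 in shCdk8-1 and 0.546 ± 0.0295 in shCdk8-2 in SnxB (SD, n = 3).

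**Figure D4:**
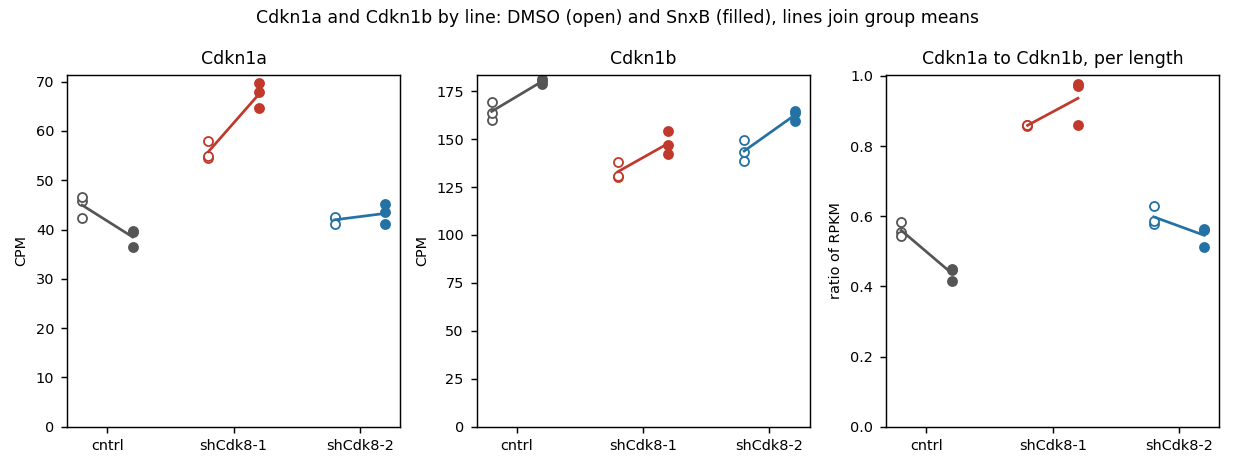
CPM of Cdkn1a and Cdkn1b and the ratio of their RPKM (vertical axes from 0) in the 3 lines, where open points are DMSO libraries, filled points are SnxB libraries and lines join group means. The line for Cdkn1a goes down in cntrl, up in shCdk8-1 and is nearly level in shCdk8-2, while all lines for Cdkn1b go up.

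Genes around the members were counted in lists by role, each to be read against the 59.6% and 57.1% of all genes that passed in the 2 knockdown lines. For SnxB the shares of all genes were 5.54%, 1.48% and 2.05% in cntrl, shCdk8-1 and shCdk8-2. Counts of list genes at an unadjusted p are given without the share of all genes, and are not a result about the lists. A list gene is named for the comparison with its largest change, and the other knockdown line can show a similar one. Among 11 tested regulators (of 13 listed) of p53 activity, 5 rose and 2 fell in shCdk8-1, and 4 rose and 2 fell in shCdk8-2, all against cntrl in DMSO, with list medians of 0.17 and 0.15. Hipk2, a kinase gene whose product phosphorylates p53, moved from 20 to 34 counts per library in cntrl to 296 to 373 in shCdk8-1, a rise of 3.54 on the log2 scale (SE 0.193, adjusted p = 3.09e-12), and rose by 1.74 in shCdk8-2. Ppm1d, whose phosphatase counteracts p53 signaling, rose by 0.44 in shCdk8-2 (adjusted p = 2.12e-07) and by 0.44 in shCdk8-1. Chek1, a DNA damage checkpoint kinase gene, fell by 0.61 in shCdk8-1 (adjusted p = 1.93e-10), and Rchy1, a further ubiquitin ligase gene of p53, by 0.60 (adjusted p = 5.54e-07). In shCdk8-2 Chek1 and Rchy1 averaged 69.2 and 30.8 CPM, against 89.5 and 40.3 CPM in cntrl, all in DMSO. None of the 11 passed for SnxB in any line in edgeR or DESeq2, and 1, 1 and 0 had an unadjusted p under 0.05 in cntrl, shCdk8-1 and shCdk8-2.

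Other p53 targets moved in both directions. Of 26 tested (of 28 listed), 8 rose and 11 fell in shCdk8-1, and 6 rose and 10 fell in shCdk8-2, with medians over the list of −0.04 and −0.03. The lowest of them was Pmaip1, the gene of the BH3-only protein NOXA, with 217 to 249 counts per library in cntrl cells in DMSO and 0 to 2 in shCdk8-1. Its mean was 12.5 CPM in cntrl and 0.0552 CPM in shCdk8-1, where so few counts allow no firm ratio. In shCdk8-2 it held 23 to 31 counts, a decrease of 3.16 on the log2 scale (SE 0.15, adjusted p = 3.63e-12). Ak1, which encodes an adenylate kinase, rose by 2.25 in shCdk8-1 (SE 0.0694, adjusted p = 3.28e-16) and by 2.24 in shCdk8-2, from 10.4 ± 0.809 CPM to 49.3 ± 1.86 and 48.8 ± 0.806 CPM. The DNA repair gene Ddb2 fell by 1.49 in shCdk8-1 and the stress cytokine gene Gdf15 by 1.24 in shCdk8-2 (adjusted p = 1.21e-05 and 4.3e-07). For SnxB, 1 of the 26 passed in cntrl, Plk2 (0.35, adjusted p = 1.14e-06), against 5.54% of all genes. In shCdk8-1 and shCdk8-2, 2 each passed, against 1.48% and 2.05% of all genes. They were Plk2 (0.23 and 0.22) and Gadd45a (0.33 and 0.55). Both genes were named after their values were seen.

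**Figure D5:**
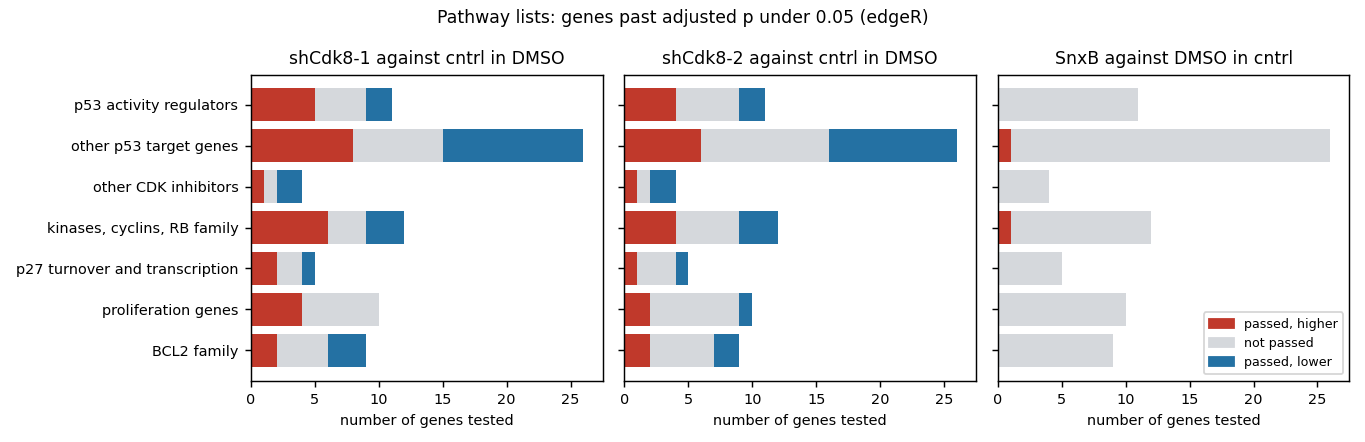
Number of tested genes (horizontal axes) in 7 pathway lists that were higher (red) or lower (blue) with an adjusted p under 0.05 or did not pass (grey) in 3 comparisons that share the cntrl libraries in DMSO. Among the other p53 targets 8 are red and 11 blue in shCdk8-1, and most bars are grey under SnxB.

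The remaining genes listed by name as CDK inhibitors were Cdkn1c, Cdkn2c, Cdkn2d and Cdkn3. They gave 1 rise and 2 falls among 4 tested in each knockdown line. Cdkn2d fell by 0.73 in shCdk8-1, from 36.6 ± 2.34 to 22.1 ± 1.05 CPM (adjusted p = 3.48e-09), and Cdkn2c by 0.29 in shCdk8-2, from 59.1 ± 1.36 to 48.2 ± 0.919 CPM (adjusted p = 3.09e-05). In DMSO Cdkn2d averaged 22.2 CPM in shCdk8-2 and Cdkn2c 51.45 CPM in shCdk8-1. These genes belong to the same family of CDK4 and CDK6 inhibitors as the unexpressed Cdkn2a and Cdkn2b. Cdkn1c, which encodes p57, rose by 1.32 in shCdk8-2 (adjusted p = 0.00301). Its level was low, with 8 to 12 counts per library in cntrl, 17 to 43 in shCdk8-1 and 23 to 36 in shCdk8-2. Of 12 kinases, cyclins and retinoblastoma family genes, 6 rose and 3 fell in shCdk8-1, and 4 rose and 3 fell in shCdk8-2. Ccne1 and Ccne2, the cyclin E genes, rose by 0.80 and 0.37 in shCdk8-2 (adjusted p = 6.62e-12 and 0.00012). Rb1 fell by 0.72 in shCdk8-1 and Rbl2 by 0.40 in shCdk8-2 (adjusted p = 8.39e-08 and 2.28e-07). For SnxB, 1 of the 12 passed in edgeR in cntrl and in shCdk8-1, in both cases Ccne1 (0.18 and 0.20, adjusted p = 0.0202 and 0.0144). Of all genes, 5.54% and 1.48% passed in these comparisons. DESeq2 also called Ccnd1, a cyclin D gene, in cntrl (0.13, adjusted p = 0.041, against 0.0609 in edgeR), which was named after its values were seen. No gene of either list passed in shCdk8-2 in edgeR or DESeq2, where 1 inhibitor gene and 2 of the 12 had an unadjusted p under 0.05.

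Genes that act on p27 or its transcription gave 2 rises and 1 fall among 5 tested in shCdk8-1, and 1 of each in shCdk8-2. Foxo4 rose by 0.54 and Rnf123, a ubiquitin ligase gene of p27, by 0.30 in shCdk8-1 (adjusted p = 9.49e-09 and 0.0017), and Foxo3 fell by 0.46 in shCdk8-2 (adjusted p = 2.44e-07). Means in cntrl, shCdk8-1 and shCdk8-2 in DMSO were 61.7, 89.6 and 83.5 CPM for Foxo4 and 40.4, 49.7 and 43.1 CPM for Rnf123. They were 78.8, 61.8 and 57.1 CPM for Foxo3. Of 10 proliferation genes, 4 rose and none fell in shCdk8-1, and 2 rose and 1 fell in shCdk8-2. Rrm2 rose by 0.37 in shCdk8-2 and Mcm2 by 0.27 and Top2a by 0.15 in shCdk8-1 (adjusted p = 4.09e-08, 5.26e-07 and 0.017), and Plk1 was lower in shCdk8-2 than in shCdk8-1 by 0.14 (adjusted p = 0.0104). In the same order of groups the means were 211, 268 and 272 CPM for Rrm2 and 239, 287 and 270 CPM for Mcm2. Those of Top2a were 1038, 1151 and 1083 CPM. In the BCL2 family, to which Bax belongs, 2 rose and 3 fell among 9 tested in shCdk8-1, and 2 rose and 2 fell in shCdk8-2. The survival genes Bcl2 and Bcl2l1 fell by 1.31 and 0.27 in shCdk8-1 (adjusted p = 5.58e-12 and 1.63e-05). Bmf and Bok, both genes of proteins that promote cell death, rose by 0.82 and 0.24 in shCdk8-2 (adjusted p = 1.35e-06 and 0.00115). Means in the same order of groups were 48.3, 19.5 and 21.5 CPM for Bcl2 and 120.5, 99.7 and 103.9 CPM for Bcl2l1. Those of Bmf were 4.005, 4.73 and 7.04 CPM, and those of Bok 57.7, 61.8 and 68.0 CPM. None of the genes in these 3 lists passed for SnxB in cntrl cells in edgeR or DESeq2, where 1, 3 and 3 had an unadjusted p under 0.05 and the median log2 fold changes were 0.02, −0.006 and −0.013.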

How the data were processed

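RNA of 18 libraries was sequenced as single-end reads. Per the study's methods, the authors trimmed the reads (Trimmomatic), aligned them to GRCm38 with GENCODE M13 (STAR) and counted them over merged exons of each gene with featureCounts 1.5.1 (strand setting 2, per the file headers). The deposited values are raw counts per gene, with no normalization and no pooling. Symbols came from GENCODE M21 of the same build.

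Counts were analysed with edgeR 4.0.16 in R 4.3.3. The filter was filterByExpr (minimum count 10, minimum total 15), scaling was by TMM, and 6 groups were fitted over all 18 libraries by the quasi-likelihood test (glmQLFit, glmQLFTest), with adjustment after Benjamini and Hochberg over 12772 genes. CPM and RPKM use the TMM-scaled totals. Standard errors derive from the F statistic. A gene passed at an adjusted p under 0.05. The code was tested on simulated data. Alternatives were DESeq2 1.42.0, DESeq2 size factors, library totals, a cutoff above 1 CPM in 3 libraries, no filter, a replicate block, a fit to the compared groups alone, and leaving out each library.

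The genes named were all 10 members, Cdk8 and Cdk19, coding genes within 1 Mb of Cdkn2a, and at most 4 genes per list whose passing change was largest, among those that averaged 1 CPM or more and whose 2 groups did not overlap. Genes of the marker lists, mammary and cell line markers included, that did not meet this rule were named to show their level. The rule also asked for genes most alike to members spanning 1 log2 unit, and no member did. Members and lists were chosen with earlier results of these data known. Of the blood, endothelial and stromal markers, 1 is not reported here. For shCdk8-2 the file headers number the libraries labelled 1, 2 and 3 as 2, 3 and 3, and the labels were used. No pair of libraries of a group agreed within sampling noise. The scatter between replicates 2 and 3 of shCdk8-2 was 1.62 times that noise in SnxB and 11.1 times in DMSO (chi-square per degree of freedom). The value in SnxB was the lowest of all pairs. Such scatter cannot show whether libraries came from separate cultures.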

Additional observations from a re-analysis of the deposited data

Results flagged for a closer look

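The response of Cdkn1a to SnxB differed between shCdk8-1 and cntrl cells by a test of the difference itself, the interaction of agent and line (0.50 on the log2 scale, SE 0.0702, adjusted p = 0.00304, edgeR). The gene fell by 0.23 in cntrl and rose by 0.27 in shCdk8-1, with all 3 SnxB libraries below all 3 DMSO libraries in cntrl and all 3 above them in shCdk8-1. In shCdk8-2 the response lay between the others at 0.04, and its difference from cntrl was 0.27 (SE 0.072, adjusted p = 0.327), which did not pass.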

How the results depend on the processing

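The members gave 31 passing values over the 10 comparisons, and none of them changed direction in 409 alternative values. They fell short of the threshold in 41 of these, spread over 13 of the 31. With all libraries kept, library totals ended 6 calls (Ccng1 in both knockdown lines, Mdm2 between them, Cdkn1b for SnxB in cntrl, and Trp53 and Cdkn1b for shCdk8-2 against cntrl in SnxB), and no filter, the compared groups alone and DESeq2 ended 4, 3 and 1. Values near 0 that did not pass turned sign as follows, on the log2 scale: with library totals Trp53 to 0.0133 (shCdk8-2 against cntrl in DMSO) and −0.0136 (SnxB in cntrl) and Ccng1 to 0.0155 (shCdk8-1 against cntrl in SnxB); with DESeq2 size factors Ccng1 to −0.0036 (shCdk8-2 against shCdk8-1) and Mdm2 to −0.0001 (SnxB in shCdk8-1); with DESeq2 itself the same values to −0.0036 and −0.0004; with the compared groups alone Ccng1 to −0.0029; and with no filter Mdm2 to −0.0044 (SnxB in shCdk8-1) and −0.0019 (SnxB in shCdk8-2) and Cdkn1b to −0.0072 (interaction with shCdk8-1). Passing members of shCdk8-2 against shCdk8-1 dropped from 4 to 2 with no filter. For SnxB in cntrl 1 member passed instead of 2 with library totals, with no filter and with the compared groups alone. For SnxB in shCdk8-1, 2 passed instead of 1 with library totals, DESeq2, the 1 CPM filter and the replicate block (Cdkn1b being the one gained, with an adjusted p of 0.0293 under the block), and 0 with the compared groups alone (edgeR). All genes passing for SnxB in shCdk8-1 numbered 189, and 567 with no filter and 50 with the compared groups alone. For the interaction with shCdk8-1 they numbered 39, and 61, 389 and 13 with DESeq2, no filter and the compared groups alone. For the interaction with shCdk8-2 they numbered 7, and 19, 44 and 4 in the same order, and 11 with the replicate block. The cause of these changes was not tested.

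Leaving out 1 library at a time gave 1 to 4 passing members for shCdk8-2 against shCdk8-1, 0 to 2 for SnxB in cntrl, 1 to 2 in shCdk8-1 and 0 to 1 in shCdk8-2. All genes passing ran from 446 to 548 for SnxB in cntrl, 112 to 443 in shCdk8-1 and 141 to 163 in shCdk8-2, and from 13 to 36 and 1 to 10 for the interactions with shCdk8-1 and shCdk8-2. Ranges that crossed 0 were, for SnxB in cntrl, −0.0195 to 0.032 for Trp53 and −0.11 to 0.0066 for Ccng1. In shCdk8-1 they were −0.0269 to 0.0291 for Mdm2, −0.0166 to 0.0895 for Ccng1 and −0.0799 to 0.0142 for Zmat3. In shCdk8-2 they were −0.0209 to 0.0445 for Mdm2, −0.0205 to 0.0419 for Ccng1, −0.0137 to 0.0752 for Bax and −0.0367 to 0.0126 for Zmat3. The others were −0.0377 to 0.0283 for Ccng1 between the knockdown lines, −0.0928 to 0.0261 for Ccng1 in shCdk8-1 and −0.0083 to 0.0806 for Bax in shCdk8-2 against cntrl in SnxB, −0.0050 to 0.0517 for Cdkn1b in the interaction with shCdk8-1, and −0.0014 to 0.11 for Ccng1 and −0.0599 to 0.0138 for Phlda3 in that with shCdk8-2.

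The replicate numbers do not say what they stand for. The mean correlation of same-numbered libraries ran from −0.0456 to 0.145 over the comparisons, and in none was every pair above 0.1. The numbers were therefore not taken as pairs, and the replicate block was used only as 1 of the alternative settings. Genes with under 3 counts in a library cannot be told from 0 at this depth, which bears on Cdkn2a, Cdkn2b and Pmaip1 in shCdk8-1.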
